A study of Mus musculus with 12 samples.

Results

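The 7 genes followed here make the core of MHC class II presentation: H2-Aa, H2-Ab1 and H2-Eb1, which encode class II chains, H2-DMa and H2-DMb1, which encode the peptide exchange factor DM, Cd74, the invariant chain, and Ciita, the class II transactivator. They were chosen by symbol, through gene identifiers matched to a GENCODE annotation of GRCm38, and were 7 of the 48526 genes in the count table. All 7 passed the filter on low counts and were among the 15523 genes tested. Their levels were measured by total RNA sequencing of bone marrow-derived macrophages (BMDMs), macrophages grown from mouse bone marrow in medium conditioned by L929 cells. The 4 groups of 3 libraries each were WT UT and WT LPS, from wild-type mice without stimulation or with lipopolysaccharide (LPS, a bacterial cell wall component) for 6 hr, and KO UT and KO LPS, from mice homozygous for the HSS9 knockout. The knockout deletes sequence at an enhancer upstream of the cytokine gene Tnf, and the deletion is carried by every cell rather than by macrophages alone. The labels give PBS for the UT cells. The study's methods describe young adult males and purchased C57BL/6 mice, whereas the labels call the controls littermates, so a shared genetic background outside the deletion is not assured. The study's methods state in general that experiments were repeated independently, but neither source ties the 3 libraries of a group to separate mice or cultures, and p-values measure only the spread between these libraries, which may be technical.

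Class II molecules are pairs of an alpha and a beta chain that show peptides from the endosome to CD4+ T cells. The invariant chain holds newly made pairs in the endoplasmic reticulum and guides them to the endosome, where proteases trim it to a short remnant that DM exchanges for peptide. CIITA does not bind DNA itself but docks on factors at the X and Y boxes of class II promoters, and interferon gamma raises Ciita through IRF1. C57BL/6 mice make the pair of H2-Aa and H2-Ab1 (I-A), whereas their H2-Ea gene is not transcribed, so that the H2-Eb1 chain lacks its usual partner. The annotated H2-Ea-ps had 0 counts in all 12 libraries.

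In GRCm38, 5 of the 7 genes lie in the class II region of chromosome 17, at 34119541 to 34139101 (H2-DMa), 34153072 to 34160230 (H2-DMb1), 34257689 to 34269419 (H2-Ab1), 34282744 to 34287823 (H2-Aa, minus strand) and 34305867 to 34316674 (H2-Eb1). This region, taken from the start of H2-Oa (34092340) to the end of H2-Eb2 (34341412), ends 858 kb before Tnf on the same chromosome. Ciita is on chromosome 16 (10480059 to 10528418). Whether strand was used in counting is not given in the sources used here, so reads from exons shared by H2-DMa and Brd2, or by Ciita and Dexi, cannot be told apart. H2-Eb1 lies across from the antisense Gm20513 without sharing exon sequence. As a check on shared reads, all transcript windows as long as a read were compared with the transcripts of other genes. H2-DMb1 shared 11.2% of its windows with H2-DMb2, H2-DMa 6.54% with Brd2 and Ciita 0.314% with Dexi, while H2-Aa, H2-Ab1, H2-Eb1 and Cd74 shared 0.

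RefSeq promoter windows (GRCm38.p6) were at hand for 4 of the 7 genes (H2-Aa, H2-Eb1, H2-DMa and H2-DMb1). The 3 that held both motifs described here are shown because class II genes are co-regulated through the X and Y boxes and the sequences let the spacing be read, and that of H2-DMb2 is shown as the near copy of H2-DMb1 that lacks the pair. Each is the 250 bases upstream of the RefSeq start, 5′ to 3′ on the gene's strand, with capitals marking GNAAC, taken here as the core of the X box, and GATTGG, the Y box.
H2-Aa: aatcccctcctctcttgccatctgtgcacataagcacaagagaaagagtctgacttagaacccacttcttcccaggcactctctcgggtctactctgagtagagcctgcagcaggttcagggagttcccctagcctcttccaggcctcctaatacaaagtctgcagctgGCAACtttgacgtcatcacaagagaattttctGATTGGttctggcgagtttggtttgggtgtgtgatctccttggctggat
H2-Eb1: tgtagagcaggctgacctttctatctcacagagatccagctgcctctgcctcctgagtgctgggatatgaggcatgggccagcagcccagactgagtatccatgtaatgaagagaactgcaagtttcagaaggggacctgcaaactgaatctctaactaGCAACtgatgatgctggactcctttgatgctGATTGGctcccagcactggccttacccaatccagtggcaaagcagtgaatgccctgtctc
H2-DMb1: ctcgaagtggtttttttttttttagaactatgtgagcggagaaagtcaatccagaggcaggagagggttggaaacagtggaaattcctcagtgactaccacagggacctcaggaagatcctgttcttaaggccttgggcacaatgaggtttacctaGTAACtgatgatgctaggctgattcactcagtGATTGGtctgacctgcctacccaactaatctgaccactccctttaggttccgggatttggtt
H2-DMb2: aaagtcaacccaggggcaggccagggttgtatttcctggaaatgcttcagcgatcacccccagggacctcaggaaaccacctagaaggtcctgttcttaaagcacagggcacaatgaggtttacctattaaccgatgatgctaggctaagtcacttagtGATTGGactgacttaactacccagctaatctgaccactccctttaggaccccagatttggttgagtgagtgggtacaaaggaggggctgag
These windows are chr17:34287824-34288073 (minus strand), chr17:34305617-34305866, chr17:34152941-34153190 and chr17:34144999-34145248. The RefSeq and GENCODE starts coincide for H2-Aa and H2-Eb1, whereas for H2-DMb1 and H2-DMb2 the RefSeq start lies downstream of the GENCODE one, so that their windows overlap the genes as GENCODE gives them. From the first base of GNAAC to the first base of GATTGG there were 32 bases in H2-Aa, 31 in H2-Eb1 and 32 in H2-DMb1. H2-DMb2 held GATTGG without a GNAAC at that spacing. Both strands were searched for GNAAC followed by GATTGG at a distance of 20 to 45 bases, a rule set after these windows had been read, and the motifs do not overlap at that distance. The pair was in 410 of 32851 promoter windows (1.25%), while GATTGG was in 14.6% and GNAAC in 79.6%, with or without the other. Neither of the 2 windows of H2-DMa held the pair, whereas H2-Oa, H2-Ob and H2-Eb2 each had it. A match describes the letters and does not show that a factor binds.

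Library totals ranged from 26154533 to 36423921 counts. Levels are given as CPM, counts per 1000000 after TMM scaling, which sets library sizes so that most genes do not differ. The choice of scaling matters for LPS, since the TMM factors were 1.29 in the WT UT libraries, 1.15 to 1.18 in KO UT and 0.811 to 0.822 in both LPS groups. Scaling by total counts instead moved the median log2 fold change of all genes by -0.66 for LPS in WT, by -0.51 for LPS in KO and by -0.15 for KO against WT in UT cells, and left KO against WT after LPS where it was. It was added after the factors had been seen, and its values are given below where they turn the direction of a member value given here. Protein-coding genes took 86.3% to 91.6% of counts over the libraries. All 8 macrophage markers were detected in every group. Their sums were 28910 to 29980 CPM in WT UT and 33310 to 34420 in KO UT. After LPS they were 27940 to 29480 in WT and 30230 to 32100 in KO. The sum thus stood higher in KO than in WT with and without LPS. Most of it was Lyz2, and the markers did not all follow it, since Csf1r was lower in KO UT (2242 CPM) than in WT UT (2448 CPM). B cells and dendritic cells also express class II, and their part in the levels was not tested. The summed level of the B cell list was almost all Ighm, at 19.2 to 21.8 CPM in WT UT, 38.2 to 40.2 in KO UT and at most 1.88 after LPS. The 8 dendritic cell markers summed to 8.72 to 10.6 CPM without LPS and 12.7 to 15.7 with it, most of it Ccr7. The 7 neutrophil markers summed to 20.5 to 22.1 CPM in WT UT, 42.9 to 48.5 in KO UT, 50.5 to 79.5 in WT LPS and 67.2 to 76.7 in KO LPS. Most of it was S100a8 and S100a9. With LPS in WT, S100a8 rose from 7.32 to 52.7 CPM and S100a9 fell from 11 to 6.08, so the list did not move as one. Its sum, like Ighm, stood higher in KO than in WT without LPS, and its part in the results was not tested. The 6 T cell markers summed to at most 0.318 CPM in any library. As a readout of the deletion, Tnf was at 890 ± 57.4 CPM (SD, n = 3) in WT LPS and 432 ± 15.2 CPM (SD, n = 3) in KO LPS.

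The first comparison asked how LPS changed the class II genes in each genotype. H2-Ab1 rose 2.85-fold in WT and 2.08-fold in KO, while Ciita fell 3.58-fold in WT and 3.57-fold in KO. These 2 of the 7 genes were called in each genotype, a call being an edgeR adjusted p below 0.05 with an absolute log2 fold change above 1, against 37.8% of all genes tested in WT and 37.0% in KO. The share called was thus near that of all genes. At any fold change, 6 of 7 had an adjusted p below 0.05 in WT (4 higher and 2 lower after LPS) and 6 of 7 in KO (3 higher and 3 lower). Of all genes tested, 73.3% passed in WT (38.0% higher, 35.3% lower) and 72.8% in KO (35.1% higher, 37.7% lower). The median log2 fold change of the 7 genes was 0.20 in WT and 0.10 in KO, and that of all genes tested was 0.05 and -0.06. By total counts the split was 1 higher and 6 lower in each genotype, and the genes called were H2-DMa and Ciita, so the direction of the genes with small changes rests on the scaling. Of all 15523 genes, 2990 passed higher and 9335 lower by total counts in WT, and 3189 and 8947 in KO. In bulk RNA, a change in the number of expressing cells cannot be told from a change in RNA per cell.

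**Figure D1:**
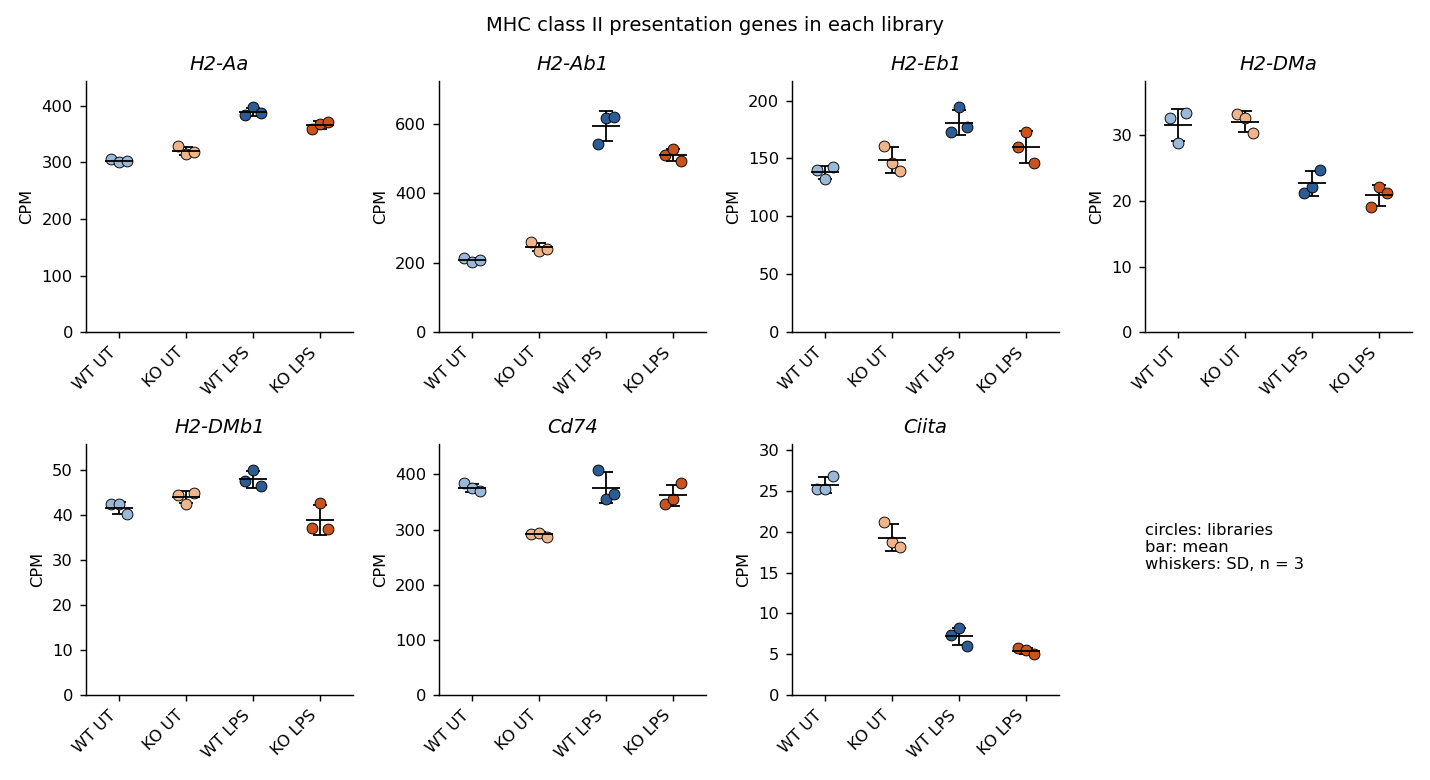
CPM (y axis, from 0, TMM-scaled) of the 7 class II presentation genes in the 4 groups. Circles are the 3 libraries of a group in order of replicate number, bars the mean and whiskers the SD; H2-Ab1 stands higher in all 6 LPS libraries than in all 6 UT libraries, Ciita stands lower, and Cd74 is lowest in KO UT.

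Among the chain genes, H2-Ab1, the beta chain of I-A, stood at 214, 202 and 207 CPM in WT without LPS and at 542, 616 and 618 CPM with it. In KO it was at 259, 235 and 240 CPM without LPS and 509, 526 and 492 with it. Every LPS library was above every UT library, and the 4 groups did not overlap at any step of the order WT LPS, KO LPS, KO UT, WT UT. The log2 fold change with LPS was 1.51 (± 0.0599 SE, edgeR adjusted p 1.02e-15) in WT and 1.06 (± 0.0593 SE, edgeR adjusted p 5.17e-13) in KO. Under total-count scaling it was 0.85 in WT and 0.55 in KO, still higher after LPS but below the fold change minimum.

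H2-Aa, the alpha chain that pairs with it, was far steadier. It was at 306, 300 and 303 CPM in WT UT and at 384, 398 and 386 in WT LPS, and at 329, 314 and 318 in KO UT and 358, 367 and 371 in KO LPS. Its CPM followed the same order of groups as H2-Ab1, again with no overlap between neighbours, over a narrower range (1.28-fold against 2.85-fold between the highest and the lowest mean). LPS moved it by a log2 fold change (log2FC) of 0.36 in WT (± 0.0483 SE, edgeR adjusted p 7.68e-07) and by 0.19 in KO (± 0.0482 SE, edgeR adjusted p 0.00131), and by total counts by -0.30 and -0.32, the opposite direction.

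H2-Eb1, the beta chain without a partner in this strain, stood at 140, 132 and 143 CPM in WT UT and 173, 194 and 177 in WT LPS. Its KO libraries were at 161, 146 and 139 CPM without LPS and 160, 173 and 146 with it. WT LPS stood above the other 3 groups, while KO LPS overlapped KO UT, and KO UT overlapped WT UT. The log2 fold change was 0.39 in WT (± 0.0693 SE, edgeR adjusted p 3.44e-05) and 0.10 in KO (± 0.0693 SE, edgeR adjusted p 0.198), and by total counts -0.28 and -0.41.

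Ratios of counts within a library do not depend on the scaling. The counts of H2-Ab1 over those of H2-Aa were 0.698, 0.673 and 0.686 in WT UT and 1.41, 1.55 and 1.60 in WT LPS. In KO the ratio was 0.787, 0.749 and 0.754 without LPS and 1.42, 1.43 and 1.33 with it. H2-Ab1 thus went from below H2-Aa to above it in reads in all 6 LPS libraries. H2-Eb1 over H2-Aa, by contrast, had group means from 0.437 to 0.466, and the libraries of all 4 groups overlapped. Per kilobase of the principal transcript, H2-Aa (269 ± 2.67, SD, n = 3) and Cd74 (267 ± 5.09, SD, n = 3) had the highest levels in WT UT, in CPM per kb, and H2-Ab1 (488 ± 35.4, SD, n = 3) the highest in WT LPS. With the length of all annotated exons in place of that transcript, the WT UT level of H2-Aa was 79.8 CPM per kb and that of H2-Ab1 80.9, so levels between genes depend on the length used.

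**Figure D2:**
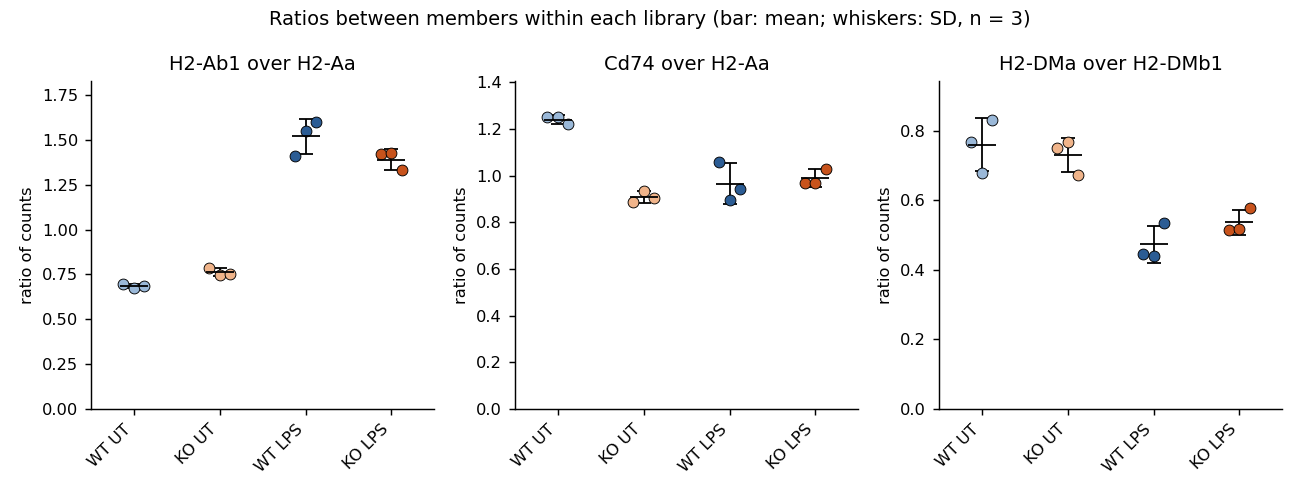
Ratio of counts (y axis, from 0) of H2-Ab1 over H2-Aa, Cd74 over H2-Aa and H2-DMa over H2-DMb1 in the 4 groups, with circles for the 3 libraries, a bar for the mean and whiskers for the SD. H2-Ab1 over H2-Aa is at 0.787 or below in every UT library and at 1.33 or above in every LPS library.

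Ciita, the regulator of the other members, moved the other way. It was at 25.2, 25.2 and 26.9 CPM in WT UT and 7.34, 8.17 and 6.03 in WT LPS. In KO it was at 21.2, 18.7 and 18.1 CPM without LPS and 5.71, 5.52 and 4.98 with it. All LPS libraries lay below all UT libraries, and the 4 groups stood apart in the order WT UT, KO UT, WT LPS, KO LPS, with a 4.77-fold range of means. The log2 fold change with LPS was -1.84 in both genotypes (SE 0.101 and edgeR adjusted p 3.83e-13 in WT, SE 0.106 and edgeR adjusted p 8.02e-13 in KO). Ciita is transcribed from several promoters in different cell types, and gene counts do not separate them. The counts of H2-Ab1 over those of Ciita averaged 8.07 ± 0.384 (SD, n = 3) in WT UT and 83.9 ± 16 (SD, n = 3) in WT LPS, and 12.7 ± 0.536 and 94.5 ± 5.01 in KO. The transactivator RNA was thus lower, and the RNA of a class II chain higher, in the same libraries, at the single time of 6 hr.

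The 2 chains of DM did not move together. H2-DMa was at 32.7, 28.8 and 33.4 CPM in WT UT and 21.2, 22.1 and 24.8 in WT LPS, and at 33.3, 32.6 and 30.3 in KO UT and 19.1, 22.2 and 21.3 in KO LPS. It fell in both genotypes, with log2 fold changes of -0.48 (± 0.0806 SE, edgeR adjusted p 1.64e-05) in WT and -0.62 (± 0.0809 SE, edgeR adjusted p 5.90e-07) in KO. H2-DMb1 was at 42.5, 42.5 and 40.2 CPM in WT UT and 47.6, 50.1 and 46.4 in WT LPS, and at 44.4, 42.6 and 45 in KO UT and 37.2, 42.7 and 36.9 in KO LPS. Its UT and LPS libraries stood apart in WT and overlapped in KO. The log2 fold change was 0.20 in WT (± 0.0643 SE, edgeR adjusted p 0.0075) and -0.18 in KO (± 0.0649 SE, edgeR adjusted p 0.0192). Both rest on the processing, since upper-quartile scaling gave 0.02 in WT, total-count scaling gave -0.46 in WT, and leaving out KO LPS replicate 1 or 3 took the adjusted p in KO to 0.0906 and 0.0907. The counts of H2-DMa over those of H2-DMb1 had means of 0.760 in WT UT, 0.474 in WT LPS, 0.730 in KO UT and 0.537 in KO LPS, without overlap between UT and LPS libraries.

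Cd74 (chromosome 18, 60803848 to 60812652), the invariant chain, was at 384, 375 and 369 CPM in WT UT and at 408, 355 and 364 in WT LPS, and the groups overlapped (log2FC -0.00 ± 0.0577 SE, adjusted p = 0.977). In KO it was at 291, 294 and 286 CPM without LPS and 347, 356 and 384 with it, with no overlap. From the highest the groups ran WT UT, WT LPS, KO LPS and KO UT, and only KO UT stood apart from its neighbour. The log2 fold change in KO was 0.32 (± 0.0579 SE, edgeR adjusted p 4.69e-05), and by total counts -0.67 in WT and -0.19 in KO.

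**Figure D3:**
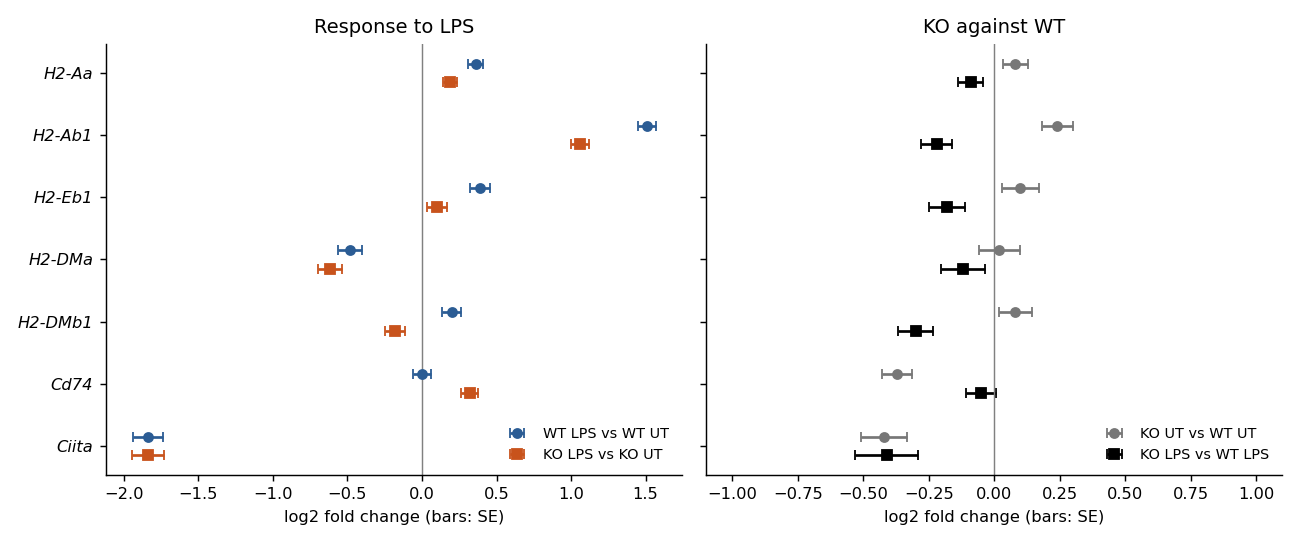
Log2 fold changes (x axis, bars are SE) of the 7 genes for LPS against UT in WT (blue circles) and KO (orange squares) on the left, and for KO against WT in UT (grey circles) and LPS (black squares) cells on the right, from the edgeR fit with TMM scaling. H2-Ab1 lies to the right of 1 and Ciita to the left of -1 in both genotypes for LPS, and all KO against WT values lie between -0.42 and 0.24.

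The second comparison asked whether the deletion changed the class II genes before stimulation. In UT cells 0 of the 7 genes were called by edgeR and 0 by DESeq2, against 1.82% of all genes (edgeR). At any fold change 3 of 7 had an edgeR adjusted p below 0.05 (H2-Ab1 higher in KO, Cd74 and Ciita lower), against 23.8% of all genes tested (14.1% higher, 9.69% lower). The same number had an unadjusted p below 0.05, against 5320 of all 15523 genes. The libraries of WT and KO did not overlap for 5 of the 7, against 40.8% of all genes. The median log2 fold change was 0.08, and that of all genes 0.00. Cd74 fell from 376 ± 7.18 CPM (SD, n = 3) in WT to 291 ± 3.96 CPM (SD, n = 3) in KO (log2FC -0.37 ± 0.0577 SE, adjusted p = 5.54e-05). The decrease was -0.40, -0.35 and -0.37 within batches 1, 2 and 3, the number that the labels give as both batch and replicate. Ciita fell from 25.7 ± 0.961 CPM to 19.3 ± 1.67 CPM (SD, n = 3 each; log2FC -0.42 ± 0.0882 SE, adjusted p = 0.0013), by -0.25, -0.43 and -0.57 within the batches. H2-Ab1 was higher in KO, at 245 ± 12.3 CPM against 208 ± 5.95 CPM (SD, n = 3 each; log2FC 0.24 ± 0.0589 SE, adjusted p = 0.00507). Under total-count scaling this difference was 0.08 (edgeR adjusted p 0.284), while those of Cd74 and Ciita were -0.52 and -0.57. Cd74 over H2-Aa in counts, which no scaling touches, was 1.25, 1.25 and 1.22 in WT UT and 0.887, 0.936 and 0.902 in KO UT, and the libraries of the genotypes stood apart.

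For H2-Aa, H2-Eb1, H2-DMa and H2-DMb1 the log2 differences between KO UT and WT UT were 0.08, 0.10, 0.02 and 0.08, with edgeR adjusted p from 0.259 to 0.893. By total counts they were -0.07, -0.05, -0.13 and -0.07, the opposite direction, and the median of the 7 genes was -0.07. Ighm, the main signal of the B cell list, was higher in KO UT (37.8 ± 0.677 CPM) than in WT UT (19.1 ± 1.20 CPM, SD, n = 3 each), so it moved opposite to Cd74 and Ciita, and with H2-Ab1. The sum of the neutrophil list, mostly S100a8 and S100a9, moved the same way as Ighm, with the values given above.

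The third comparison set KO LPS against WT LPS. Again 0 of the 7 genes were called by edgeR and 0 by DESeq2, against 1.25% of all genes (edgeR). At any fold change 3 of 7 had an edgeR adjusted p below 0.05, against 14.3% of all genes, and these 3 (H2-Ab1, H2-DMb1 and Ciita) were lower in KO, against 6.54% of all genes that passed in that direction. At an unadjusted p below 0.05 there were 4, against 4426 of all 15523 genes. The KO libraries lay below the WT libraries without overlap for 5 of the 7 genes, against 14.9% of all genes, and above them for 0. The median log2 fold change was -0.18, and that of all genes -0.01. H2-DMb1 was at 48 ± 1.92 CPM in WT and 38.9 ± 3.28 CPM in KO (SD, n = 3 each; log2FC -0.30 ± 0.0659 SE, adjusted p = 0.00393). Within batches it was lower by -0.36, -0.23 and -0.33, and the adjusted p was below 0.05 in all 21 alternatives. H2-Ab1 was at 592 ± 42.9 CPM in WT and 509 ± 16.9 CPM in KO (SD, n = 3 each; log2FC -0.22 ± 0.0586 SE, adjusted p = 0.0168). Its difference varied between batches (-0.09, -0.23 and -0.33). The adjusted p rose above 0.05 when only the LPS groups were fitted (0.0545) and on leaving out KO LPS replicate 1 (edgeR adjusted p 0.058), KO LPS replicate 3 (0.0774), WT LPS replicate 2 (0.0864) or WT LPS replicate 3 (0.0526). Ciita was at 7.18 ± 1.08 CPM in WT and 5.40 ± 0.381 CPM in KO (SD, n = 3 each; log2FC -0.41 ± 0.120 SE, adjusted p = 0.0246). Its adjusted p rose above 0.05 when only the LPS groups were fitted (edgeR adjusted p 0.0748) and without KO LPS replicate 2 (0.0543), KO LPS replicate 3 (0.101) or WT LPS replicate 2 (0.132). The other 4 genes had log2 differences from -0.18 (H2-Eb1, edgeR adjusted p 0.0812) to -0.05 (Cd74, edgeR adjusted p 0.598). Cd74, which was lower in KO UT, was thus within the spread of the WT libraries after LPS, at 362 ± 19.3 CPM in KO and 376 ± 28.2 CPM in WT (SD, n = 3 each).

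Whether the response to LPS itself differed between the genotypes was tested by the interaction, the log2 response in KO minus that in WT. It gave 0 calls among the 7 genes by edgeR and by DESeq2, against 2.16% of all genes (edgeR). At any fold change 4 of 7 had an adjusted p below 0.05, against 16.8%, and 5 an unadjusted p below 0.05, against 4512 of all 15523 genes. H2-Ab1 responded less in KO, by -0.45 (± 0.0831 SE, edgeR adjusted p 6.72e-04), and by -0.37, -0.45 and -0.53 within batches. This difference had an adjusted p below 0.05 in all 20 alternatives, with -0.30 (edgeR adjusted p 0.0117) by total counts. Cd74 had the opposite sign, 0.32 (± 0.0817 SE, edgeR adjusted p 0.00958), and was below 0.05 in all 20. H2-DMb1 was at -0.38 (± 0.0914 SE, edgeR adjusted p 0.0062) and at -0.22 (edgeR adjusted p 0.0825) by total counts. H2-Eb1, at -0.29 (± 0.0979 SE, edgeR adjusted p 0.0477), was below 0.05 in 6 of the 20 alternatives, and was at 0.0696 with a replicate block. The responses of Ciita in KO and WT differed by 0.00 (SE 0.187, edgeR adjusted p 1).

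Next, 33 further genes of the class II pathway were read, of which 31 were tested (Ifng and H2-Ea-ps had 0 counts in every library). LPS called 12 of the 31 in WT (10 higher and 2 lower), against 37.8% of all genes, and 14 in KO (11 higher and 3 lower), against 37.0%. In each genotype 25 had an edgeR adjusted p below 0.05 at any fold change, against 73.3% and 72.8% of all genes. The share called in WT was thus near that of all genes. The median log2 fold change was 0.17 in WT and 0.41 in KO. By total counts the calls were 6 higher and 9 lower in WT, against 1687 higher and 5455 lower of all 15523 genes. In KO they were 6 higher and 8 lower, against 1794 and 5119. Of the 31 genes, 11 act upstream of Ciita, and 6 of these were called higher in WT and 7 in KO, against 19.1% and 17.7% of all genes called in that direction. Socs1, a feedback inhibitor of cytokine signalling, rose by 6.37 (log2) in WT and by 5.71 in KO (edgeR adjusted p 1.35e-20 and 1.11e-19). Jak2, a kinase of the interferon gamma receptor, rose by 4.55 and 4.80, and Irf1 by 2.06 and 2.26. Prdm1, a repressor of Ciita in plasma cells, rose by 1.11 and 1.29. Ifngr1, the ligand-binding receptor chain, fell, with -1.13 in WT and -1.16 in KO. Ciita thus fell in libraries in which the RNA of Irf1, a known activator of it, rose.

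Of the 7 promoter factor genes, 0 were called in WT, against 37.8% of all genes, and only Rfx5 in KO, against 37.0%. This call of Rfx5 was lost under total-count scaling, where its log2 fold change in KO was 0.71. An edgeR adjusted p below 0.05, whatever the size of the change, was reached by 5 of the 7 in each genotype. The share of all genes that reached it was 73.3% in WT and 72.8% in KO. Rfx5, which binds the X box, was at 0.97 in WT and 1.22 in KO (edgeR adjusted p 6.63e-09 and 2.39e-10), while its partners Rfxap (-0.68 and -0.33) and Rfxank (-0.74 and -0.69) fell. Among the proteases, Sppl2a, which cuts a fragment of the invariant chain, rose by 1.68 and 2.08. The lysosomal enzymes Lgmn (-0.90 and -0.97) and Ctsb (-0.63 and -0.50) and the thiol reductase Ifi30 (-0.53 and -1.09) fell. Ctss, a protease that cuts the invariant chain, was at 0.17 in WT and 0.01 in KO. March1, which marks class II for degradation, rose by 2.47 in WT and 2.93 in KO. Cd83, which protects class II from March1, was at 0.01 in WT (edgeR adjusted p 0.817) and fell by -0.63 in KO (edgeR adjusted p 3.10e-10). H2-Ob (1.07 and 1.31) and H2-Eb2 (-1.18 and -1.61) were called in both genotypes, but had at most 51 and 27 counts in any library, and both depend on the processing. H2-Ob in WT was at 0.41 by total counts (edgeR adjusted p 0.235). H2-Eb2 in WT had an adjusted p below 0.05 in 9 of 20 alternatives, with 0.0561 with a replicate block, 0.0716 by DESeq2 and up to 0.187 on leaving out 1 library (WT LPS replicate 2).

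**Figure D4:**
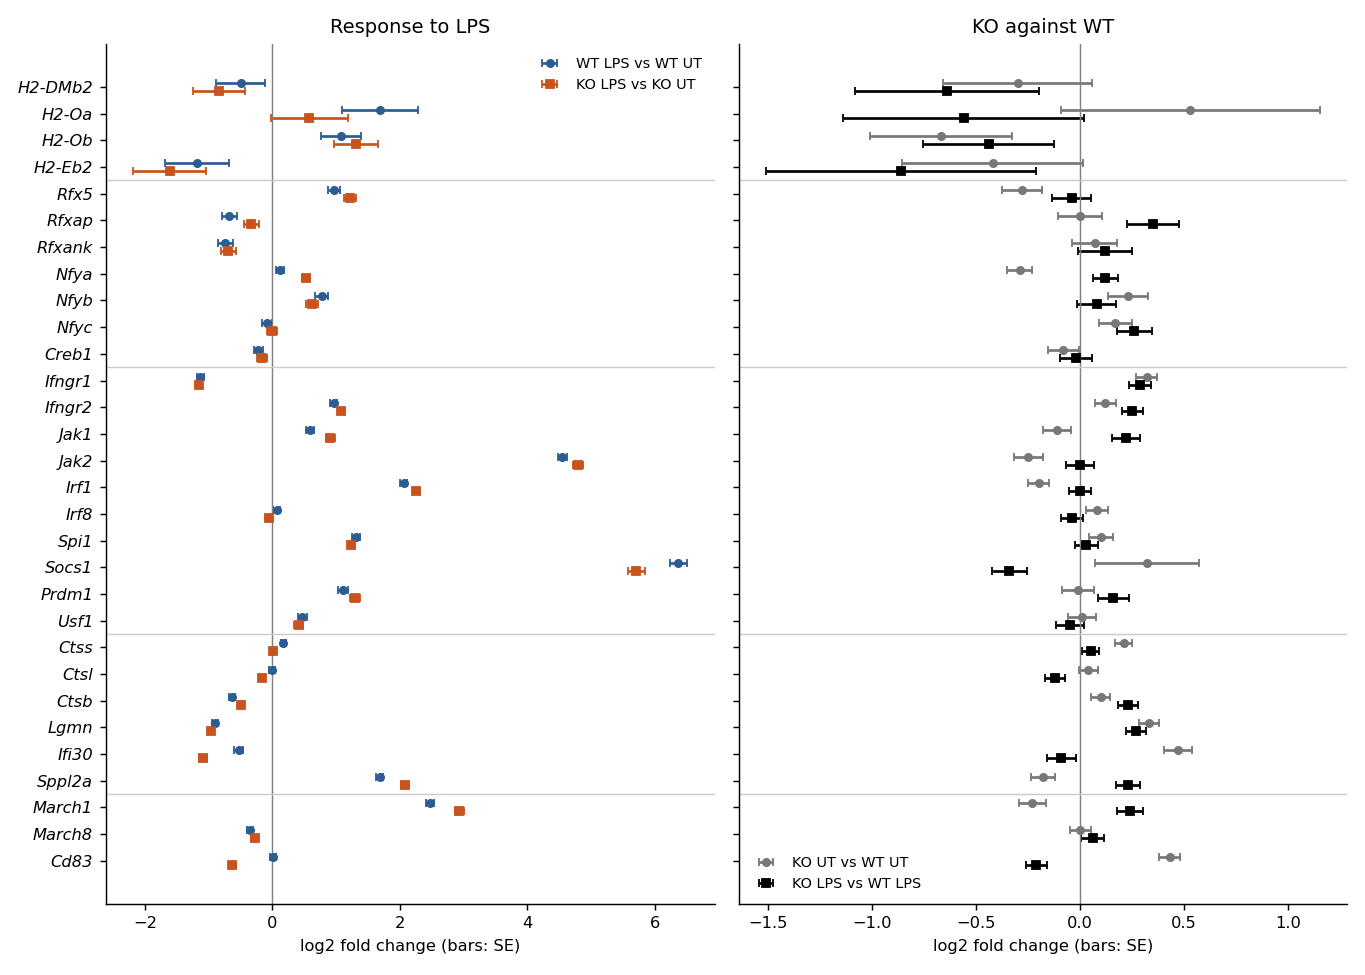
Log2 fold changes (x axis, bars are SE) of 30 of the 31 other class II pathway genes tested, for LPS against UT in WT (blue) and KO (orange) on the left and KO against WT in UT (grey) and LPS (black) cells on the right. Grey lines separate the roles, from the top other chains, promoter factors, genes upstream of Ciita, proteases and reductase, and surface turnover; Socs1, Jak2 and March1 lie far to the right on the left panel.

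Between the genotypes, 0 of the 31 were called by edgeR or DESeq2, in UT cells or after LPS. At any fold change 12 had an edgeR adjusted p below 0.05 in UT cells (5 higher and 7 lower in KO), against 23.8% of all genes, and 11 after LPS (9 higher and 2 lower), against 14.3%. At an unadjusted p below 0.05 there were 16 and 14 of the 31, against 5320 and 4426 of all 15523 genes. The 11 became 6 without KO LPS replicate 3 and 7 without WT LPS replicate 3. The median log2 fold changes were 0.01 and 0.05. Jak2 (-0.25, edgeR adjusted p 0.0128) and Irf1 (-0.20, edgeR adjusted p 0.00699) were lower in KO UT, as was Ciita, and after LPS their differences were 0.00 and -0.00. Jak2 in UT cells had an edgeR adjusted p of 0.0879 without WT UT replicate 2. Cd83 was at 0.43 in UT cells (edgeR adjusted p 2.55e-06) and -0.21 after LPS (edgeR adjusted p 0.00845). Ifngr1 (0.32 and 0.29) and Lgmn (0.33 and 0.27) were higher in KO in both.

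The class II region was read gene by gene, since H2-Ab1 and its neighbours share it with genes of class I presentation. Of 18 genes that start there, 15 were tested, 5 of them members. Of the other 10, 8 were called with LPS in each genotype, 7 higher and 1 lower, against 37.8% of all genes in WT and 37.0% in KO. By total counts 4 were called higher and 2 lower in WT, against 1687 higher and 5455 lower of all 15523 genes. In KO 5 were called higher and 2 lower by total counts, against 1794 and 5119. Tap1 and Tap2, the peptide transporter, rose by 3.19 and 2.69 (log2) in WT and by 3.59 and 2.83 in KO, and the immunoproteasome genes Psmb9 (2.39 and 2.25) and Psmb8 (2.36 and 2.16) rose as well. Between KO LPS and WT LPS 0 of these 10 genes had an adjusted p below 0.05 by edgeR or DESeq2, against 14.3% of all genes (edgeR). At an unadjusted p below 0.05 there were 0 as well, against 4426 of all 15523 genes (edgeR). Of the 5 members there, H2-Ab1 and H2-DMb1 had an adjusted p below 0.05, and whether members and neighbours differ was not tested. Of the 10, H2-DMb2, H2-Oa, H2-Ob, H2-Eb2 and Gm20496 had at most 76 counts in any library. H2-Ob and H2-Eb2 were among the 8 called with LPS. The SE between KO LPS and WT LPS was 0.315 in H2-Ob and 0.649 in H2-Eb2, against 0.0586 in H2-Ab1. A difference as small as that of H2-Ab1 could not have been seen in these low-count genes.

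**Figure D5:**
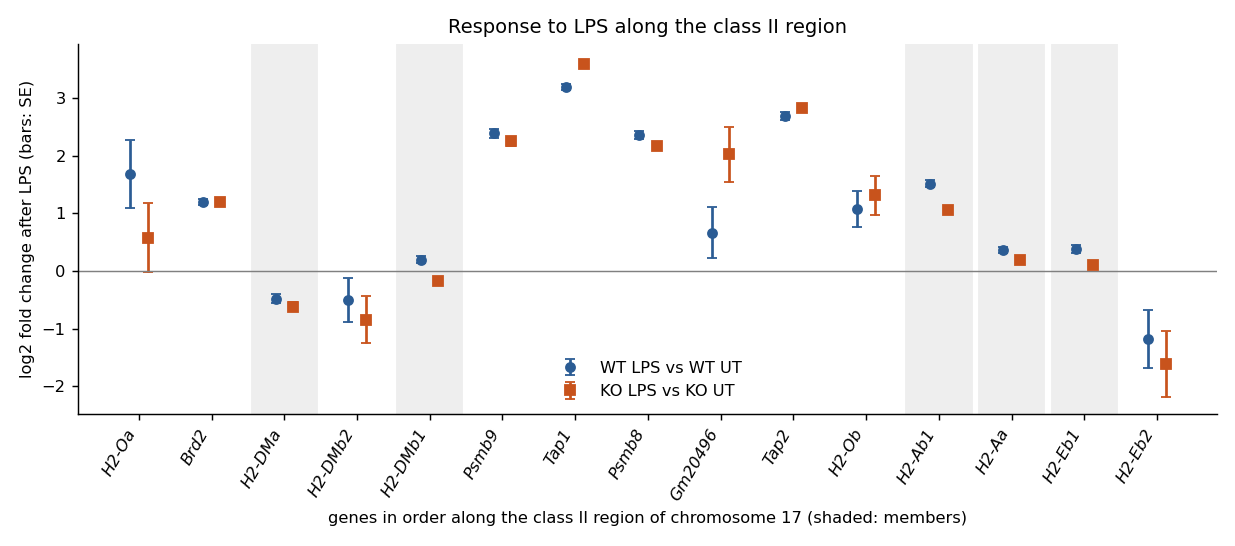
Log2 fold change with LPS (y axis, bars are SE) of the 15 tested genes of the class II region in their order along chromosome 17, in WT (blue circles) and KO (orange squares), with members shaded. Tap1, Tap2, Psmb8 and Psmb9 lie above 2, and H2-Ab1 is the highest of the 5 members.

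Last, the genes whose profile was nearest to that of H2-Ab1 or Ciita were sought among 12391 genes that averaged 1 CPM or more, by the root mean square difference of centred log2 CPM over 12 libraries. Those nearest H2-Ab1 were Adap2 (0.06), Acaa1a (0.07), 1700123O20Rik (0.08), the class I gene H2-K1 (0.08) and Itsn1 (0.08). The nearest other member was H2-Aa (0.51), at rank 3386. Near Ciita were Cd24a (0.13), Gm44164 (0.15), Vwf (0.16) and Abca8b (0.16), and the nearest other member was H2-DMa (0.69), at rank 3012. The libraries share the LPS response, so such nearness describes the profiles and no more.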

How the data were processed

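Total RNA libraries were prepared by the authors with a stranded globin-depletion kit and sequenced as paired reads of 101 bases. Per the submitters' processing notes and the study's methods, FastQC 0.11.9, HISAT2 2.1.0 (GRCm38), SAMtools 1.17 and featureCounts 2.0.0 were used, and the deposited table holds raw counts per gene. The annotation release, strand setting and treatment of multi-mapping reads are not given in the sources used here, so counts of overlapping genes can be split or lost. Symbols came from GENCODE M21 by identifier without version, which matched 48144 of 48526 genes (the other 382 held 0.122% of counts).

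Differential expression was computed in edgeR 4.0.16 (limma 3.58.1, R 4.3.3) by glmQLFTest after TMM scaling. The filter filterByExpr (minimum count 10, total 15) kept 15523 genes, which held 99.96% of counts. A single model of group means took in all 12 libraries, with Benjamini-Hochberg adjustment across the 15523 genes. A call followed the study's criteria (adjusted p below 0.05, absolute log2 fold change above 1). DESeq2 1.42.0 and other settings were alternatives. The test was checked on simulated data. Figures used matplotlib 3.10.9.

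The members and gene lists were chosen with earlier results of these data known. Named genes were the 7 members, the pathway list, the class II region and the 5 genes nearest H2-Ab1 or Ciita in profile, with Tnf, Ighm, Ccr7, Lyz2, Csf1r, S100a8 and S100a9 as checks. Genes of these lists that are not named are not reported here, though they stay in the counts. The labels' batch number equals the replicate number, which pairs libraries by label. Deviations from group means of same-numbered libraries correlated at -0.0631 to 0.0373 over 18 pairs, 0 of them above 0.1. No 2 libraries of a group agreed within counting noise (chi-square per degree of freedom of at least 3.81).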

Additional observations from a re-analysis of the deposited data

Results flagged for a closer look

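These genes are listed because the log2 response to LPS in KO minus that in WT had an edgeR adjusted p below 0.05 (interaction term, 3 libraries a group). Among the members they were H2-Ab1 (-0.45), H2-DMb1 (-0.38), H2-Eb1 (-0.29) and Cd74 (0.32). The other pathway genes named here were Cd83 (-0.65, SE 0.0724, edgeR adjusted p 5.92e-06), Ifi30 (-0.56, SE 0.0961, edgeR adjusted p 3.45e-04), March1 (0.47, SE 0.0902, edgeR adjusted p 0.001), Nfya (0.41, SE 0.085, edgeR adjusted p 0.00191), Sppl2a (0.40, SE 0.0804, edgeR adjusted p 0.00132) and Jak1 (0.32, SE 0.0956, edgeR adjusted p 0.0236). Groups of 3 libraries were not tested for single outlying libraries.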

How the results depend on the processing

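The alternatives were DESeq2, RLE, upper-quartile, protein-coding and total-count scaling, no filter, a filter at a mean of 1 CPM, a replicate block, fits of the compared groups alone, dropping the fold change minimum, and leaving out each of the 12 libraries in turn. Total-count scaling was chosen after seeing the data. Without the fold change minimum the member counts were 6 (LPS in WT), 6 (LPS in KO), 3 (KO against WT, UT), 3 (KO against WT, LPS) and 4 (interaction), those of the other pathway genes 25, 25, 12, 11 and 7, and those of all genes 11386, 11295, 3700, 2223 and 2611. Upper-quartile scaling called 1 member for LPS in KO, since H2-Ab1 fell under the minimum, and moved the median of all genes by -0.18 for LPS in both genotypes.

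For LPS, total-count scaling reversed H2-Aa (-0.30 in WT, -0.32 in KO), H2-Eb1 (-0.28, -0.41), H2-DMb1 (-0.46 in WT), Cd74 (-0.19 in KO), Ctss (-0.50 in WT, -0.50 in KO), Usf1 (-0.20, -0.09), and in WT Nfya (-0.55), Jak1 (-0.08), Irf8 (-0.59) and Cd83 (-0.65). Between KO UT and WT UT it turned the small differences of H2-Aa (-0.07), H2-Eb1 (-0.05), H2-DMa (-0.13) and H2-DMb1 (-0.07). In the interaction it took the members with an adjusted p below 0.05 from 4 to 2, the other pathway genes from 7 to 15 and all genes from 2611 to 4083. Upper-quartile scaling reversed Ctss (-0.02 in WT, -0.18 in KO) and Cd83 (-0.17 in WT), gave H2-Aa 0.01 in KO (adjusted p 0.907) and Cd74 -0.19 in WT (adjusted p 0.00314). These reversals follow from the shift of all genes.

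At any fold change, members lower in KO LPS numbered 1 when only the compared groups were fitted and 1 to 4 with 1 library left out (1 without KO LPS replicate 3 or WT LPS replicate 2). Other pathway genes numbered 6 to 13 in that comparison with 1 library left out (6 without KO LPS replicate 3, 7 without WT LPS replicate 3). In the interaction they numbered 11 under DESeq2, 11 under RLE scaling and 6 to 14 with 1 library left out (14 without WT LPS replicate 1). Of all genes, 3297 of 26119 passed there under DESeq2 and 3120 of 15523 under RLE scaling. Calls over all genes fell from 283 to 160 (UT) and from 194 to 117 (LPS) at a mean CPM of at least 1, and in the interaction went from 335 to 519 without WT LPS replicate 1 and to 197 without WT LPS replicate 3.

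The replicate block took H2-Eb1 in the interaction to an adjusted p of 0.0696, H2-Eb2 for LPS in WT to 0.0561, Rfx5 (0.0516) and Sppl2a (0.0551) in UT cells and Nfyc (0.0674) and Jak1 (0.065) after LPS, and changed no other call named here. Depth limited H2-DMb2, H2-Oa, H2-Ob, H2-Eb2 and Gm20496, which had at most 76 counts in any library.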
